A study of Danio rerio with 80 samples.

Results

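Potassium channel genes were taken as the rows of the deposited expression table whose gene symbol starts with kcn. There were 110 such rows among the 23473 rows of the table, carrying 107 symbols, because kcnh1a, kcnh6b and kcnq3 each stood on 2 rows. Of these, 67 rows had a mean of at least 0 on the deposited log2 scale over all 80 libraries and were tested, among 16170 tested rows in all. The limit fell between kcnh8, just inside at a mean of 0.15, and kcnk13a, just outside at -0.03, and these genes had a median of 12 and 10.5 reads per library. Another 7 rows carry a symbol in capitals (KCN) and are not counted as members.

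Single whole brains of adult AB wild-type zebrafish were sequenced after poly-A selection. As embryos and larvae, at 6 to 96 hours of age, the fish were exposed to a mixture of persistent organic pollutants at 10 or 70 times human blood levels (POP10, POP70), to perfluorooctane sulfonic acid alone at the amount in those mixtures, 0.3 or 2.06 mg/L (PFOS10, PFOS70), or, as control, to the 0.1% DMSO solvent that all groups received. They then lived in clean water until sampling. Exposure replicates carry the numbers 3 to 6 in every condition, 4 for each of the 5 conditions, with 2 females and 2 males from each, so 16 fish per condition and 8 per condition and sex. The number also gives the age at sampling in every condition: 219 days for number 6, 226 for number 5, 233 for number 4 and 240 for number 3. Number, age and exposure replicate therefore cannot be told apart, and the 4 fish of an exposure replicate shared one exposure, so the p-values below reflect variation among individual fish.

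Potassium channels let potassium leave or enter a cell and so set its resting potential, end each action potential and limit firing rate. Voltage-gated Kv channels open on depolarisation, inward rectifiers and two-pore channels hold the resting potential, and calcium- or sodium-activated channels act after activity. Accessory subunits such as Kv beta and KChIP proteins bind the pore-forming subunits and change their gating or surface level.

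The 80 libraries held 9.01 to 20.3 Mreads (units of 1000000 recovered reads), and the kcn rows took 0.164 to 0.241% of them, with a median of 0.197%. A log2 value is a read count divided by a library factor, so a value of 0 stands for 7.12 to 14.4 reads, depending on the library, and a count of 0 was deposited as if it were 0.9 read. Values are not divided by transcript length, so they compare fish within a gene and not genes with each other. In this tissue labelled brain all 12 listed neuronal marker genes were tested, and their summed linear level ran from 13530 to 19550 over the libraries. Muscle markers reached 242 at most in that sum. The photoreceptor gene rho stood at 0 reads in 35 libraries and ttr, from the ependyma and choroid plexus list, in 68. Other markers on the same lists were expressed, with mean log2 values of 4.62 for rbp3, 2.98 for gnat2, 6.94 for otx2b and 4.79 for igfbp2a. The summed level reached 460 for the retina and pineal list and 226.5 for the ependyma and choroid plexus list.

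Among the voltage-gated subfamilies, 5 of 7 Kv1, 1 of 2 Kv2, all 6 Kv3 and all 3 Kv4 rows were tested, with 6 of 8 Kv7 and 8 of 13 EAG, ERG and ELK rows. Of the silent Kv subunits, which act only in heteromers, 5 of 11 rows were tested. The calcium- and sodium-activated channels gave the BK channel kcnma1a, 3 of 4 small-conductance rows and both kcnt rows. Inward rectifiers gave 11 of 24 rows and two-pore channels 9 of 20. All 4 Kv beta rows, 2 of 3 KChIP rows and kcne4 completed the tested members. In 16 of the 43 untested rows most libraries had 0 reads, and the tandem copies kcnj1a.4 and kcnj1a.6, whose annotated spans overlap neighbouring copies, had 0 reads in all 80. One untested row stood apart from the rest and was picked for that after its values were seen: kcnk5a, a two-pore channel, had 2 reads or fewer in 44 fish but more than 100 in 9, up to 415, and of those 9 fish 4 were controls and 5 carried number 4.

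The tested members differed greatly in how much they varied between fish. The fast-spiking Kv3.1 subunit kcnc1a (chromosome 7, 33028452 to 33088144, GRCz11 coordinates as deposited) spanned 8.40 to 9.15, a range of 0.74 over 80 brains. The A-type channel subunit kcnd2 spanned 0.85, the Kv beta subunit kcnab1b 0.88 and the G-protein-gated inward rectifier kcnj3b 0.89. In all, 15 tested rows had a range under 2, that is within 4-fold from the lowest to the highest fish. At the other end 31 rows had a range of at least 5, and the inward rectifier kcnj13 the widest at 9.32, from 0 reads in 1 fish to 634 in another. Such widths include counting error, since many of these rows had few reads; kcnj13 itself had a median of 132.5 reads.

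Low-level and high-level brains were to a large degree the same brains across the wide-ranging channels. The first principal component of the tested rows, computed without any kcn row, took 39.9% of the variance of all tested rows. Rows were centred but not scaled for it, so rows with a wide range weigh more in it. The kcn rows and all tested rows compared next were not matched for range. It took at least 0.5 of the variance in 36 of the 67 kcn rows (53.7%), against 21.9% of all tested rows, and the median share was 0.57 for kcn rows and 0.11 for all. Its share was 0.90 for the voltage-gated channel kcna1a, and 0.002 for kcnab1b. Of the 31 rows with a range of at least 5, 25 had a share of at least 0.5, and of the 15 with a range under 2 only kcnj3a did. The 36 rows had a median range of 5.77 and a median mean level of 1.66, against 2.15 and 3.83 in the other 31, and a similar median genomic span, 51.0 and 52.1 kb. The values of 10 rows ran against the component: kcnn1a, kcnq5b, kcnip3b, kcnn3, kcnd2, kcnip1b, kcnb2, kcnc1a, kcnt2 and kcnab1b. The component is a measured pattern of these libraries and carries no name: cell composition, RNA quality and state cannot be told apart from it, as in any whole tissue fewer cells of a type and less RNA per cell cannot. The component took at least 0.5 of the variance in 26 of 50 tested genes of a list of other excitability genes, with a median share of 0.55. In neuronal markers it did so for 3 of 12, with a median share of 0.09, near the 21.9% and 0.11 of all tested rows. It did so for 1 of 10 radial glia and astroglia markers and 1 of 6 microglia markers. For the oligodendrocyte, red cell, vessel and mural cell, muscle, retina and pineal, and ependyma and choroid plexus lists the count was 0.

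**Figure D1:**
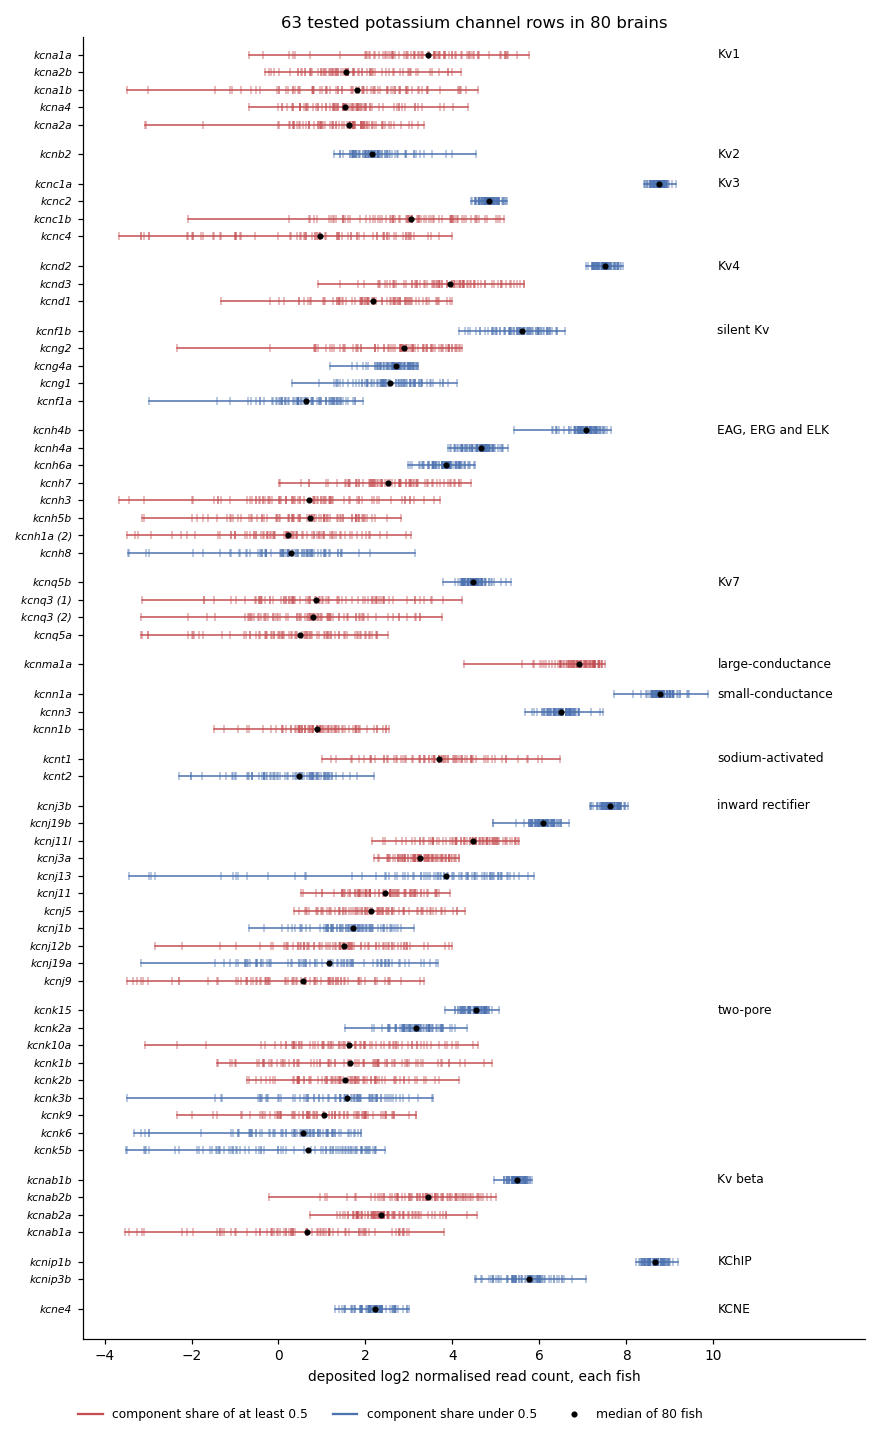
Each tick is the deposited log2 normalised read count of 1 fish (x axis) for 1 of 63 of the 67 tested rows (y axis), grouped by subfamily and ordered by mean within each; black points are medians over 80 fish, and colours give the share of variance taken by the component of the other genes. Red rows (share of at least 0.5) are mostly wide, whereas kcnc1a, kcnd2, kcnj3b, kcnab1b and kcnip1b span less than 1 unit.

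Zebrafish carry many channels as a and b copies of one ancestral gene, and 14 pairs had both copies tested. In 7 pairs, among them kcnab1, kcnc1, kcnj3, kcnk2, kcnn1 and kcnq5, 1 copy had a component share of at least 0.5 and the other did not; since all tested kcn rows divide into 36 and 31 at this limit, nothing particular to copies is read from that count. The pair kcnc1 is an example: kcnc1a had a median of 3788 reads, a range of 0.74 and a share of 0.05, whereas kcnc1b had 85.5 reads, a range of 7.27 and a share of 0.88. For kcnab1 the b copy had 417.5 reads and a range of 0.88, and the a copy 14 reads and a range of 7.33. In 4 pairs (kcna1, kcna2 and kcnab2 among them) both copies had a high share and in 3 (kcnf1, kcnh4, kcnj19) both a low one. In 12 of 14 pairs the copy with the higher mean value had the narrower range, and the part that read depth plays in this was not tested. How reads shared by similar copies were assigned is not given in the sources used here.

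Most potassium channel genes, like most tested rows, differed among the exposure replicate numbers. Number 3, the oldest fish at 240 days, was compared with number 6, the youngest at 219 days, 20 fish each, in a limma fit that also held the 10 group means. Of the 67 tested kcn rows, 44 passed an adjusted p of 0.05 over all tested rows, 42 lower and 2 higher in number 3 as deposited, but 26 lower and 9 higher among 35 after quantile normalization. Among all tested rows 39.8% passed as deposited, 32.6% lower and 7.18% higher, and the share after quantile normalization is not given here. The kcn median was -0.93 and that of all rows -0.08 as deposited, and -0.31 and 0.08 after quantile normalization, which moved the median of all rows by 0.16. An F test of any difference among the 4 numbers called 45 of the 67 kcn rows, near the share of 62.5% in all tested rows.

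Among the Kv3 channels, which allow fast repolarisation, kcnc1b (chromosome 25, 8063455 to 8094080) ran from -2.07 to 5.06 with a median of 1.49 in number 3, against 1.17 to 5.19 with a median of 4.02 in number 6. The ranges overlapped, with high fish of number 3 reaching the level of the other numbers. The kcnc1b difference was -1.80 ± 0.34 (SE; limma, adjusted p = 1.552e-05), and all 5 conditions had the lower mean in number 3. In exact two-sided permutation tests over the means of the 5 exposure replicates of each number, kcnc1b did not overlap between the numbers (p = 0.00794, the smallest possible with 5 against 5). In all, 4 of the 6 Kv3 rows passed, each lower in number 3. In contrast kcnc1a averaged 8.78 in number 3 and 8.78 in number 6.

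The A-type channel gene kcnd3 (Kv4) had a median of 2.68 in number 3, from 0.92 to 5.65, against 4.37 in number 6, from 2.64 to 5.64. It fell by 1.49 on the log2 scale (SE 0.26, limma adjusted p = 3.362e-06). The delayed-rectifier gene kcna1a (Kv1, whose human counterpart is mutated in episodic ataxia) fell by 1.83 on the log2 scale (SE 0.34, limma adjusted p = 1.167e-05), with a median of 2.17 in number 3 and 3.99 in number 6. All 5 tested Kv1 rows were lower in number 3 past the threshold, as were 5 of 6 Kv7 rows, which carry the M-current that damps repetitive firing. The Kv beta gene kcnab2b fell by 1.41 on the log2 scale (SE 0.25, limma adjusted p = 4.259e-06), and 3 of 4 Kv beta rows passed, all but kcnab1b. For kcnd3, kcnab2b, kcna1a, kcnh7 and kcnk10a the means of the exposure replicates did not overlap either (exact permutation p = 0.00794 each). Those of kcnj11l, kcna1b and kcnma1a did overlap (exact permutation p = 0.0159, 0.0238 and 0.0238). With replicates paired by condition the exact p was 0.0625 for kcnc1b and each of the non-overlapping genes, the smallest that 5 pairs allow. All were chosen by their limma p in the same fish, so the lack of overlap is no independent support. The share of all tested rows without such overlap was not computed, so nothing particular to kcn rows is read from it.

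Most rows of the channels that set the resting potential went the same way. The KATP-type inward rectifier kcnj11l fell by 1.12 on the log2 scale in number 3 (SE 0.20, limma adjusted p = 5.333e-06), with a median of 3.40 against 4.79 in number 6. Of 11 inward rectifier rows 8 passed, all lower, and of 9 two-pore rows 6, all lower, among them kcnk10a of the TREK group at -1.96 ± 0.38. The BK channel kcnma1a, which couples calcium entry to repolarisation, ran from 4.28 to 7.38 in number 3 and from 6.43 to 7.5 in number 6, and fell by 0.69 on the log2 scale (SE 0.14, limma adjusted p = 3.284e-05). Both rows that rose changed little: the Kv7 gene kcnq5b by 0.21 ± 0.08 (limma adjusted p = 0.0284) and the Kv2 gene kcnb2 by 0.44 ± 0.19 (limma adjusted p = 0.0494). The kcnq5b call was lost in 3 of 12 alternatives and the kcnb2 call in 7 of 11. Neither separated the exposure replicates (exact permutation p = 0.0794 and 0.0873). The lowering did not hold in every subfamily. Lower past the threshold were 5 of 8 EAG, ERG and ELK rows, 2 of 3 Kv4 rows and 1 of 2 sodium-activated rows. Only 1 of 5 silent Kv rows passed, lower, with a subfamily median of -0.19. Of 3 small-conductance rows 1 passed, lower, and 2 were higher without passing (median 0.11). Both KChIP rows were higher and kcne4 was lower, and 0 of these passed.

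**Figure D2:**
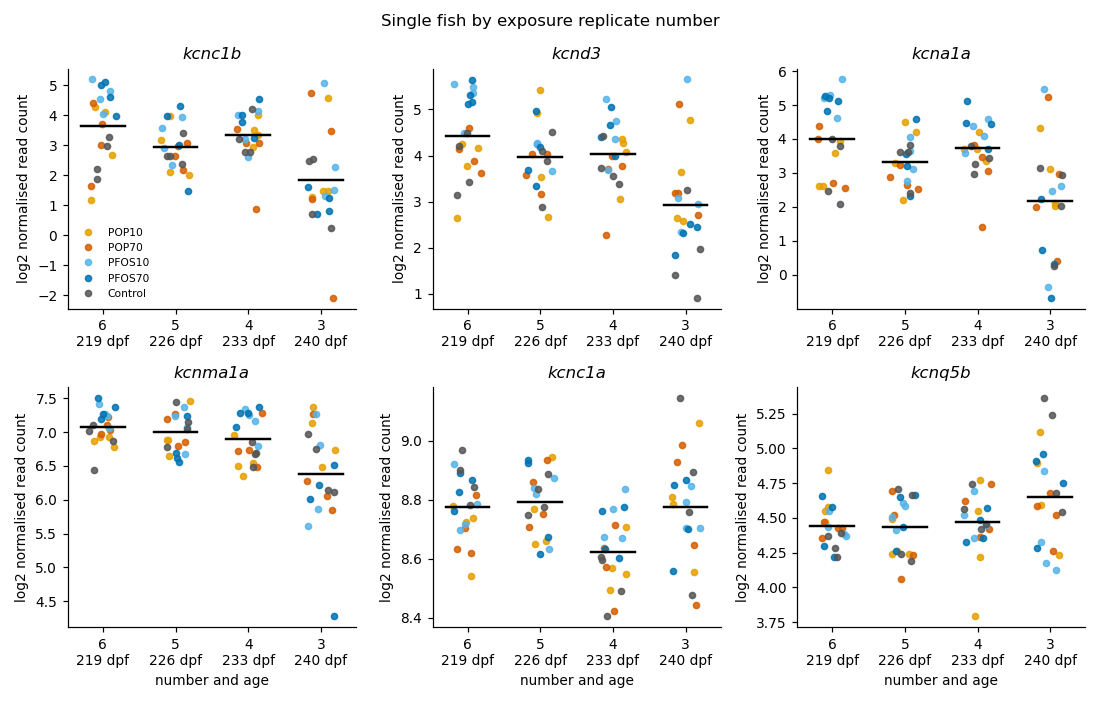
Deposited log2 normalised read count of each fish (y axis) by exposure replicate number and age in days post fertilisation (dpf, x axis) for 6 genes, coloured by condition; black bars are means of 20 fish. In kcnc1b, kcnd3, kcna1a and kcnma1a many number 3 fish lie below the others while some do not, kcnc1a is lowest in number 4, and kcnq5b differs little.

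This lowering went together with the component. Its mean was -0.88 ± 1.19 in number 3, against 0.61 ± 0.88 in number 6 (SD, n = 20 each), and 9 of the 10 libraries lowest on it were number 3. Of the other cell type lists, 10 of 10 oligodendrocyte markers were lower in number 3 than in number 6 (3 past the threshold, median -0.21). So were 4 of 6 microglia markers (2 past it, median -0.26), 5 of 6 muscle markers (median -0.43) and 5 of 8 vessel and mural cell markers (-0.03). Other lists lay mostly higher in number 3: 6 of 10 radial glia and astroglia markers (median 0.08) and 4 of 7 red cell markers (0.13). The same held for 3 of 4 ependymal and choroid plexus markers (0.21) and 4 of 4 retina and pineal markers (0.21). The summed level of oligodendrocyte markers was 4628 to 10520 in number 3, against 5808 to 15960 in number 6. That of microglia markers was 134.6 to 434.1 against 100.2 to 253.4, with the higher mean in number 3 (206.5 against 175.8). The part of these lists in the kcn differences was not tested. All 36 kcn rows with a share of at least 0.5 were lower in number 3 past the threshold, with a median of -1.41, while among the other 31 rows 2 were higher and 6 lower past it, with a median of -0.05. With the component as a covariate 0 of 67 kcn rows passed between numbers 3 and 6, against 0.254% of all tested rows, and kcnc1b stood at 0.046, kcnd3 at -0.13 and kcnj11l at -0.05. As the component itself differed between these numbers, that fit also takes out number differences that run along it. It therefore cannot separate number from component. Without the 2 libraries lowest on the component (control male 2 and PFOS70 male 2 of number 3, a choice made after seeing the data) 41 of the 44 calls were kept. The largest difference of a row with a low share was that of kcnj13 at -2.50 ± 0.63 (limma adjusted p = 0.000823), a gene picked for its size after the values were seen.

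**Figure D3:**
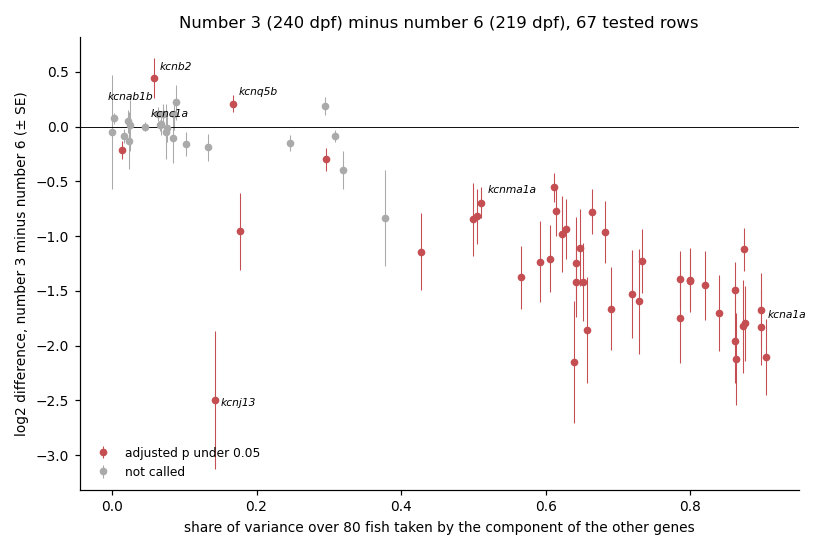
Log2 difference of number 3 minus number 6 with its SE (y axis) against the share of a row's variance taken by the component of the other genes (x axis), for the 67 tested rows; red points passed an adjusted p of 0.05. All 36 rows with a share of at least 0.5 lie below 0, kcnc1a and kcnab1b lie near 0, and kcnj13 stands apart at -2.50.

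Of the adjacent ages, the oldest pair differed nearly as widely. Number 3 (240 days) against number 4 (233 days), a comparison added after the data were seen, gave 37 kcn rows, 32 lower and 5 higher in number 3, beside 47.8% of all tested rows, 42.3% lower and 5.52% higher. After quantile normalization there were 23, 11 lower and 12 higher, and the median of all tested rows was 0.02, against -0.17 as deposited. The share of all tested rows that passed in that setting is not given here. The inward rectifier kcnj11l had a median of 3.40 in number 3 and 4.83 in number 4, a fall of 1.19 on the log2 scale (SE 0.20, limma adjusted p = 3.772e-06), and the exposure replicate means did not overlap (exact permutation p = 0.00794). The rows that rose were the small-conductance channels kcnn1a (0.36 ± 0.08) and kcnn3 (0.29 ± 0.10), kcnd2 (0.18 ± 0.05), kcnq5b (0.18 ± 0.08) and kcnc1a (0.15 ± 0.04). In that order the calls were lost in 1, 2, 1, 8 and 1 of 12 alternatives. Their exact permutation p values were 0.0318, 0.0476, 0.0556, 0.119 and 0.00794, and only for kcnc1a did the exposure replicate means not overlap. With the component as covariate 10 kcn rows passed, of which 4 were among the 37, and the share of all tested rows in that fit is not given here.

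Both other adjacent pairs gave fewer calls. Number 5 (226 days) against number 6 (219 days) gave 14 of 67 kcn rows, near the share of 20.5% in all tested rows. All 14 were lower in number 5 as deposited, whereas all tested rows divided into 9.31% lower and 11.2% higher. After quantile normalization 18 kcn rows were lower and 1 higher. The 14 rows were led by the Kv1 gene kcna4, at a median of 1.43 in number 5 and 2.13 in number 6, a fall of 1.13 on the log2 scale (SE 0.28, limma adjusted p = 0.00297). The inward rectifier kcnj12b fell by 1.24 on the log2 scale (limma adjusted p = 0.0139), and its exposure replicate means did not overlap (exact permutation p = 0.00794). The GIRK gene kcnj3a, a G-protein-gated inward rectifier, fell by 0.47 on the log2 scale (SE 0.13, limma adjusted p = 0.0100). Without the PFOS70 fish of number 5 the count was 9, with a correlation within exposure replicates in the model 6, and with the component as covariate 1. Shares of all tested rows under these alternatives are not given here.

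Number 4 (233 days) against number 5 (226 days) gave 2 of 67 kcn rows, near the share of 3.36% in all tested rows. The narrow kcnc1a had a median of 8.62 in number 4, from 8.40 to 8.84, against 8.80 in number 5, from 8.62 to 8.95. It fell by 0.17 on the log2 scale (SE 0.04, limma adjusted p = 0.0116), and the 5 exposure replicate means of number 4 all lay under those of number 5 (exact permutation p = 0.00794). The kcnj3a gene was higher in number 4 by 0.45 ± 0.13 (limma adjusted p = 0.0450), a call lost in 6 of 12 alternatives. The kcnc1a call was lost in 1, the fit with a correlation within exposure replicates, where its adjusted p was 0.0527.

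No potassium channel gene passed the threshold in any exposure. Of the 67 tested rows 0 were called against control by limma for POP10, POP70, PFOS10 and PFOS70, beside 0.0124%, 0%, 0.00618% and 0% of all tested rows, and 0 in voom fits on the recovered reads. At an unadjusted p under 0.05 there were 2, 1, 24 and 11 kcn rows, beside 4.04%, 1.82%, 13.8% and 6.09% of all tested rows, and all but 1 of these kcn rows were higher than control. The same count of 0 held within females, where 0.0186% of all tested rows passed for POP10 (each of them higher) and 0% for the others, and within males, with 0% for all 4. At an unadjusted p under 0.05 females gave 1, 1, 14 and 1 kcn rows for POP10, POP70, PFOS10 and PFOS70, beside 3.81%, 1.68%, 5.81% and 2.97% of all tested rows. Males gave 3, 1, 2 and 2, beside 3.23%, 2.35%, 3.82% and 4.18%. In the interactions of exposure with sex 0 kcn rows passed, and each of the 4 gave 1 at an unadjusted p under 0.05, beside 2.6%, 2.28%, 1.81% and 2.02% of all tested rows. The mixture against PFOS alone gave 0 at the low level and 0 at the high level, with 5 and 2 at an unadjusted p under 0.05, beside 6.28% and 3.93%. The high against the low level gave 0 for the mixture and 0 for PFOS, with 0 and 1, beside 3.45% and 2.07%. The precision limits this: the 95% intervals of the differences had a median distance of 0.68 from the estimate to either end, and for PFOS10 39 of 67 reached a 2-fold higher level (a log2 difference of 1).

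The values nonetheless lay mostly above control. Over both sexes 51 of 67 rows were higher in POP10, with a median difference of 0.22, beside 0.02 over all tested rows. In POP70 50 rows were higher (median 0.15, beside 0.01), in PFOS10 54 (0.56, beside 0.06) and in PFOS70 58 (0.42, beside 0.04). After quantile normalization the counts were 50, 48, 46 and 52 for POP10, POP70, PFOS10 and PFOS70, and the PFOS10 median was 0.33, beside -0.04 over all tested rows. Among the 27 kcn rows with a mean of at least 10 on the linear scale the PFOS10 median was 0.10, with 19 rows higher. All 4 exposures share the same 16 control fish, so these counts are not independent. The share of all tested rows that lay above control is not given here, so the counts are to be read beside the medians of all tested rows. The component moved with them, with means of -0.03 ± 0.81 in POP10, -0.16 ± 0.84 in POP70, 0.40 ± 1.09 in PFOS10, 0.16 ± 1.31 in PFOS70 and -0.36 ± 0.80 in control (SD, n = 16 each). With it as a covariate the kcn medians were 0.01, 0.03, 0.03 and 0.05 for POP10, POP70, PFOS10 and PFOS70. Since the component's means differed between conditions, that fit can also take out exposure differences that run along it. The medians also moved with the numbers included: without number 3 that of POP70 was 0.01 and that of PFOS70 0.69, and without number 6 the 4 medians were 0.11 (POP10), 0.07 (POP70), 0.31 (PFOS10) and 0.10 (PFOS70). Without number 5 the POP70 median was 0.29. All 36 high-share rows were higher in PFOS10 than in control, with a median of 0.96, and 18 of the other 31, with a median of 0.05. Markers of most other cell types lay higher in PFOS10 too, though 0 of them passed. These were 6 of 6 muscle markers (median 0.91), 8 of 10 oligodendrocyte markers (0.12) and 5 of 6 microglia markers (0.25). Also higher were 11 of 12 neuronal (0.03), 7 of 10 radial glia and astroglia (0.03) and 6 of 7 red cell markers (0.07). So were 5 of 8 vessel and mural cell (0.08) and 4 of 4 retina and pineal markers (0.28). In contrast 4 of 4 ependymal and choroid plexus markers were lower (-0.17). Beside the PFOS10 median of 0.06 over all tested rows, the neuronal and the radial glia and astroglia medians lay lower, and the red cell and vessel medians near it. Those of muscle, oligodendrocyte, microglia, and retina and pineal markers lay above it. The summed muscle level was 8.35 to 170.7 in PFOS10, against 6.46 to 112.3 in control. The mean summed level lay below control for oligodendrocyte (9232 against 9594) and microglia markers (189.1 against 211.5). In PFOS70 6 of 6 muscle markers (median 0.14) and 3 of 10 oligodendrocyte markers (-0.04) were higher. The part of these markers in the kcn differences was not tested.

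The ELK channel kcnh3, of a family that sets a subthreshold potassium current in forebrain neurons of mammals, had the smallest p in PFOS10. It ran from -0.36 to 3.71 with a median of 1.37 in PFOS10, against -3.09 to 1.26 with a median of -0.19 in control. Single fish overlapped, but the 4 exposure replicate means of PFOS10, 0.98, 1.31, 1.27 and 2.46 for numbers 3 to 6, all lay above those of control, -0.95, 0.46, 0.34 and -0.29. The difference of 1.62 ± 0.51 did not pass (limma adjusted p = 0.361). The exact permutation p was 0.0286 unpaired, the smallest that 4 against 4 allow. With exposure replicates paired by number it was 0.125, the smallest that 4 pairs allow. As kcnh3 was named for its p in the same fish, these exact tests are no independent support. The Kv4 gene kcnd3 stood at a difference of 1.01 ± 0.35 in PFOS10 and did not pass either (limma adjusted p = 0.361). In PFOS70 the smallest p values were those of kcnj19a (1.19 ± 0.49), kcna2a (0.89 ± 0.37) and kcna2b (0.82 ± 0.36), each at a limma adjusted p of 0.716. In POP10 kcnh5b stood at 1.09 ± 0.43 and kcnd2 at -0.14 ± 0.07, and in POP70 kcnk6 at 0.81 ± 0.40, with limma adjusted p values of 0.930 for POP10 and 0.9998 for POP70.

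**Figure D4:**
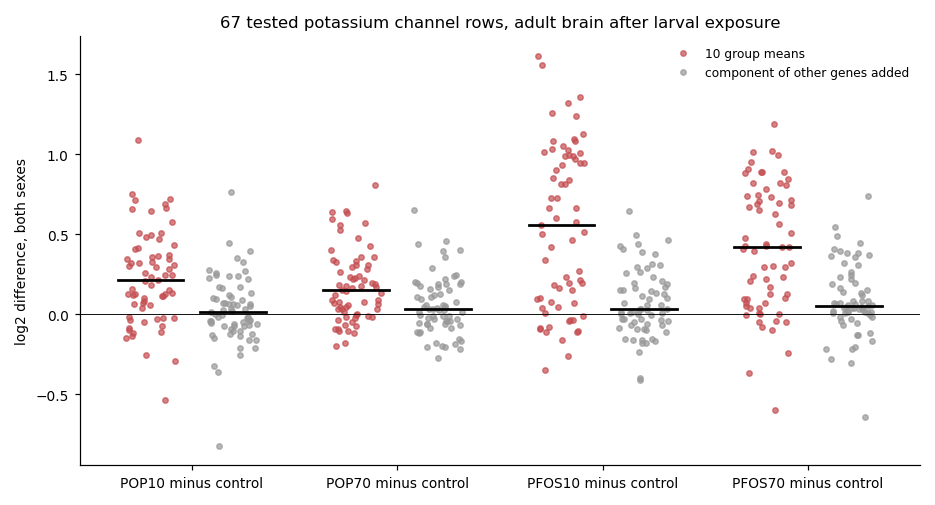
Log2 difference of each exposure minus control over both sexes (y axis) for the 67 tested rows, from the fit of 10 group means (red) and with the component of the other genes added as a covariate (grey); black bars are medians. The red medians are 0.22, 0.15, 0.56 and 0.42 from left to right and the grey ones lie between 0.01 and 0.05; no point passed the test.

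Leaving out number 3 changed 2 of the exposure counts. Without the 20 number 3 fish, POP70 against PFOS70 gave 22 kcn rows, all lower in POP70, beside 11.4% of all tested rows, against 0 with all numbers. The kcn median there was -0.71, and -0.23 with all numbers. The F test of any exposure likewise gave 16 kcn rows without number 3, beside 8.59% of all tested rows, and 0 with all numbers (0.0309% of all tested rows; at an unadjusted p under 0.05, 3 kcn rows beside 4.1%). In number 3 the exposure replicate mean of kcnh3 was -2.46 in PFOS70, against -0.95 in control, while in number 6 it was 2.70 in PFOS70 and -0.29 in control.

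Between the sexes 1 of 67 kcn rows passed, beside 1.06% of all tested rows. This was kcnt2 (chromosome 2, 12019341 to 12079718), which encodes a sodium-activated potassium channel of the Slick type. Its log2 value had a median of 0.78 in females, from -0.70 to 2.19, against -0.22 in males, from -2.28 to 1.81 (n = 40 each), with a median of 15.5 reads in females and 8 in males. The ranges overlapped widely, and few reads stood behind each value. The female minus male difference was 0.92 ± 0.18 (limma adjusted p = 0.00167), or 0.46 on the log2(linear value + 1) scale, where it passed as well. Females had the higher mean in 18 of 20 exposure replicates. With the signs of these 20 differences flipped at random 100000 times, the permutation p was 1e-05, the smallest that so many flips can give. As kcnt2 was named for its limma p in the same fish, the sign-flip test is no independent support.

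The kcnt2 difference had the same direction in all 5 conditions, at 0.56 in POP10, 1.09 in POP70, 0.85 in PFOS10, 1.07 in PFOS70 and 1.03 in control, and in all 4 numbers, from 0.65 in number 3 to 1.11 in number 6. In control fish alone, 8 against 8, it was 1.03 ± 0.41 and did not pass (limma adjusted p = 0.9999). No kcn row passed there, and 1 had an unadjusted p under 0.05, beside 1.8% of all tested rows. Without number 6 the adjusted p was 0.103 at a difference of 0.86. Markers of several cell types moved with sex in these libraries. Of the oligodendrocyte markers 5 of 10 were lower in females past the threshold, with a median of -0.32. Their summed linear level was 5216 to 12020 in females, against 4628 to 16590 in males. Also lower past the threshold were 2 of 10 radial glia and astroglia, 2 of 8 vessel and mural cell, 1 of 6 microglia and 1 of 7 red cell markers. The part of these markers in the kcnt2 difference was not tested. The next smallest p values were those of kcnj3b (-0.11 ± 0.04) and kcnc1a (0.08 ± 0.03), which did not pass (limma adjusted p = 0.265 and 0.270).

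**Figure D5:**
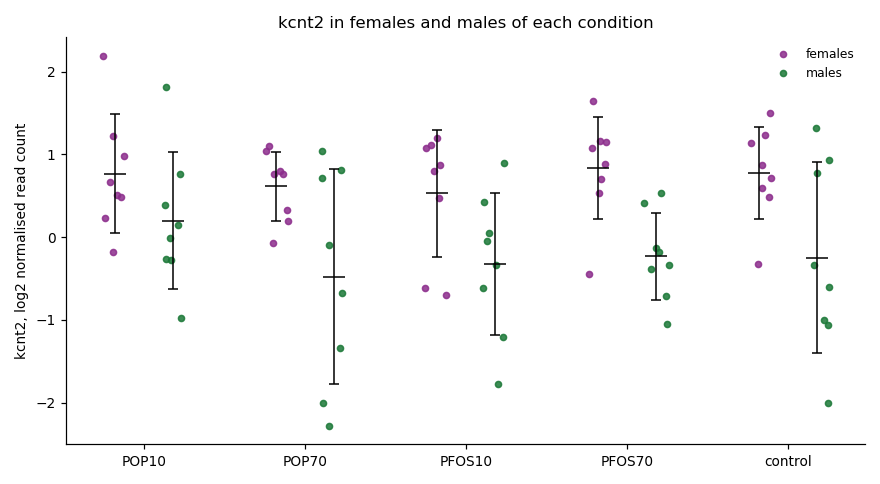
Deposited log2 normalised read count of kcnt2 (y axis) in females and males of each condition (x axis), 8 fish each; points are fish, and bars are means ± SD. Female means lie between 0.53 and 0.84 in all 5 conditions and male means between -0.48 and 0.20.

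The variance of the kcn rows divided much like that of all tested rows. The number took a median share of 0.157 in kcn rows and 0.149 in all, condition 0.06 and 0.05, and sex 0.008 and 0.009. Among the largest shares of the number were those of kcnj11l (0.351), kcnab2b (0.329), kcnd3 (0.296) and kcnma1a (0.281). It was smallest in the ERG channel kcnh6a (0.0046), kcnh4a (0.0278), kcnk2a (0.0356), kcnab1b (0.0366) and kcnip3b (0.0368).

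Other genes of membrane excitability gave a like count. Of 64 listed genes for sodium channels, HCN channels, sodium pumps, chloride transporters and channel-anchoring proteins, 50 rows were tested. Between numbers 3 and 6, 37 passed, 36 of them lower in number 3, with a median of -0.52. Among these were the A-type channel partner dpp6a (-1.54 ± 0.23), the sodium channels scn1lab (-1.43 ± 0.22) and scn8ab (-1.61 ± 0.26), and the Kv1-complex partner adam22 (-2.0 ± 0.34); atp1b3a was the 1 that rose. Of the 12 neuronal markers 9 were lower in number 3, 6 of them past the threshold, with a median of -0.13, and their summed level was 13530 to 18780 in number 3, against 15670 to 18830 in number 6. In the exposures 0 of the 50 were called, and in PFOS10 43 were higher, with a median of 0.28. Between the sexes 1 passed, the sodium pump subunit atp1a3b, at -0.43 ± 0.06 (female minus male).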

How the data were processed

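Reads of 80 single brains were prepared with the NEBNext Ultra kit after poly-T selection, per the labels' protocols. The build GRCz11 and the tools STAR 2.5.4b, Trim Galore 0.4.5, R 3.5.0 and DESeq2 are listed in the submitters' processing notes. The counter, the annotation, the use of strand and the scaling are not given in the sources used here, so reads of overlapping, antisense or near-identical genes could not be told apart. Per the file headers, the authors deposited log2 normalised expression for every gene in every fish. Under 5000 reads, 100% of values came out as whole reads with a tolerance of 0.02, so the reads behind them were recovered.

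Rows with a mean log2 of at least 0 over the 80 libraries entered a limma fit (version 3.58.1, R 4.3.3) with 1 mean for each of 10 groups, a mean-variance trend, two-sided tests and Benjamini-Hochberg adjustment over all 16170 tested rows at 0.05. Number comparisons added the number to the group means. For named genes, exact permutation tests used means of 4 fish per exposure replicate, and their use between numbers was added after the data were seen. They are unpaired unless said otherwise. Paired forms cannot go below 0.125 with 4 pairs or 0.0625 with 5. The named genes were chosen by limma p in the same fish, so these tests are no independent support. The share of all tested rows whose replicate means did not overlap was not computed, so in no comparison is a lack of overlap read as particular to kcn rows. Scripts were tested on simulated data.

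Named genes are those past the threshold, up to 12 in each direction by smallest p; where fewer than 3 passed, the 3 with the smallest p are given as values that did not pass. Levels are also given for the members of each subfamily with the highest mean or widest range and for those nearest the limit of testing. Some genes that these rules select are counted but not reported here by name. The members, lists, tests and rules were chosen with earlier results of these data known. Pairing by number rests on the labels, in which fish of 1 number have 1 age whatever their condition. Same-numbered exposure replicates correlated with a median of 0.256 over 40 pairs (-0.08 to 0.82), of which 35 were over 0.1, against -0.10 for other pairs, and for 16 of 20 the best match carried the same number. A fit holding the number as a replicate block stands in the closing section with the other alternatives: 2 filters, another pseudocount, quantile normalization, a correlation within exposure replicates, the component of the other genes as covariate, library weights, voom on the recovered reads, and left-out libraries or numbers.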

Additional observations from a re-analysis of the deposited data

Results flagged for a closer look

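In 29 genes named by the rule, each of the 10 groups of 8 fish was searched for a fish far from the rest, and 27 of 290 groups had one. Chance gives about 1 in 20 only for independent groups of like fish. Here each group mixed fish of all numbers, the genes were mostly named for number differences, and the same fish recur across genes. The count is therefore not set against that rate. In control males the values of 1 fish, number 3 fish 2, stood lowest in kcna1b (-3.48, 0 reads), kcnd1 (-1.33), kcnd3 (0.92), kcnk10a (-2.33), kcnma1a (6.15), kcna2a (-1.75) and kcng2 (-2.33, 2 reads), and highest in kcnq5b (5.36) and kcnn1a (9.88). This is the library lowest on the component. In POP70 females number 3 fish 1 stood lowest in kcnc1b (-2.07), kcnk10a (-3.07) and kcna2a (-3.07) and highest in kcnb2 (4.54), and fish 2 of number 4 lowest in kcnab1a (-3.26, 0 reads). In POP70 males fish of number 3 stood highest in kcnb2 (3.85) and kcnj12b (3.93) and lowest in kcnma1a (5.85). A PFOS70 male of number 3 had 4.28 in kcnma1a, far below the next fish at 6.01, and a PFOS70 female of number 4 had 3.53 in kcnb2. A POP70 male of number 5 had -0.196 in kcng2, and a POP10 female of number 4 had 7.73 in kcnn1a. A PFOS10 male of number 5 stood high in kcnc1a (8.88). A POP10 male of number 3 had -2.83 in kcnj12b, from 1 read. Among control females, number 3 fish 2 had 0.013 in kcnd1, and number 3 fish 1 had -3.04 in kcna2a, from 1 read, and 7.46 in kcnn3. A control male of number 6 had 2.90 in kcnk2b.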

How the results depend on the processing

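The replicate block, in a paired fit, changed no count: 0 kcn rows in each exposure comparison and 1 between the sexes. All exposure counts stayed at 0 under every alternative run except the 2 without number 3 (22 for POP70 against PFOS70, 16 for any exposure; 0 to 22 and 0 to 16 over the numbers left out). Between females and males the count was 0 with a filter at a mean of 10 on the linear scale, which leaves kcnt2 untested, 2 with library weights and 0 to 1 with a number left out. For number 3 against 6 it was 13 with that filter and 0 with the component as covariate, and 43 without number 4 or 5. For number 3 against 4 it was 15 with the filter, 23 after quantile normalization, 10 with the component, 20 with library weights and 35 to 36 with a number left out. For number 4 against 5 it was 1 without a filter, 1 after quantile normalization, 0 with a correlation within exposure replicates, 1 without the PFOS70 fish of number 5, and 1 to 5 with a number left out. For number 5 against 6 it was 2, 6 and 1 with the filter, the correlation and the component, 22 by voom, 9 without the PFOS70 fish of number 5, and 13 to 29 with a number left out. For any number it was 16 with the filter, 15 with the component and 29 to 44 with a number left out. With the component as covariate these named genes changed sign between numbers 3 and 6: kcna1a at 0.054, kcnc1b at 0.046, kcnk10a at 0.12 and kcna1b at 0.10; between numbers 3 and 4 kcna1b did, at 0.085. The kcnh7 difference of PFOS70 minus PFOS10 ran from -0.83 to 0.033 with a number left out, and was 0.033 without number 3. The filter tests fewer genes and leaving out a number fewer fish. The component's means differ between numbers and between conditions, so as a covariate it can also take up those differences. For the other settings the cause was not tested. Shares of all tested rows under these alternatives are not given here unless stated above, so these counts alone do not set kcn rows apart from the whole table. Of the 31 kcn rows with a range of at least 5, 20 had a median under 30 reads per library, which limits the precision of each value.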

Other observations

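The inward rectifier kcnj13, known from pigment cells and epithelia such as the choroid plexus, had 10 reads or fewer in 11 of 80 brains and more than 100 in 50. Of the 11 low brains 6 carried number 3, 2 number 4, 2 number 5 and 1 number 6. By condition, all 11 came from POP10 (5), PFOS10 (3) and control (3). Over the 80 fish its log2 value was compared with 4 ependymal and choroid plexus markers. Pearson's r was 0.20 with otx2b (Spearman's rho 0.04), 0.10 with igfbp2a (0.07), -0.13 with foxj1a (-0.18) and -0.06 with foxj1b (-0.13). In the same order of markers the permutation p values of r were 0.0768, 0.354, 0.2425 and 0.608 (0.307, 0.472, 0.472 and 0.608 adjusted over these 4 relations), and those of rho 0.751, 0.552, 0.1195 and 0.266 (0.751, 0.736, 0.478 and 0.532 adjusted). None passed. Without the 2 fish farthest from the median of kcnj13 r was 0.24, 0.12, -0.13 and -0.10. Within the numbers r with otx2b was 0.10 in number 6, -0.01 in number 5, 0.42 in number 4 and 0.24 in number 3.

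The Kv3.1 gene kcnc1a had the smallest p among kcn rows for a difference between the sexes in the response to POP70, PFOS10 and PFOS70, at 0.22 ± 0.10, 0.20 ± 0.10 and 0.26 ± 0.10 (female minus male difference from control), and none passed (limma adjusted p = 0.916, 0.9999 and 1). In PFOS70 it averaged 8.85 ± 0.06 in females and 8.68 ± 0.11 in males, and in control 8.71 ± 0.20 in females and 8.80 ± 0.20 in males (SD, n = 8 each). The 3 comparisons share the same control fish. In control the female minus male difference was -0.40 in number 3, and -0.05, -0.01 and 0.12 in numbers 4, 5 and 6. With a number left out, the POP70 value ran from 0.018 to 0.31, that of PFOS10 from 0.097 to 0.26 and that of PFOS70 from 0.13 to 0.38.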
